A study of Mus musculus with 22 samples.

Results

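Glutamate released at a synapse passes through a short list of proteins that load it into vesicles, clear it from the cleft and turn it over through glutamine, and 9 genes encoding such proteins were followed here in the anterior cingulate cortex (ACC) of mice. They were chosen by name for these roles and are 9 of the 37786 genes in the count table. RNA was sequenced from bulk bilateral ACC of 22 adult male C57BL/6J mice, 8 weeks old when the experiments began and housed singly once the optic fibre was implanted. Both groups were wild type and carried, in the basolateral amygdala (BLA) of each hemisphere, an AAV5 vector with channelrhodopsin-2 fused to EYFP under the CaMKIIa promoter, which is active mainly in excitatory neurons, and both had an optic fibre in the ACC on a single side. The 10 stimulated mice (stim) received blue light on the BLA terminals in the ACC over 9 sessions, on 3 consecutive days a week, while in the 12 controls (ctrl) no light was given in these sessions. Tissue was taken 48 h after the last session. Both sides were dissected from mice with a fibre on a single side, so the tissue may mix lit and unlit cortex. How far the light reached is not known from these data. Each library was made from 5 ng of RNA.

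Before release, glutamate is pumped into synaptic vesicles by the vesicular carriers encoded by Slc17a7 (VGLUT1), Slc17a6 (VGLUT2) and Slc17a8 (VGLUT3), using the proton gradient set up by the vacuolar ATPase. Excitatory neurons of the cortex use mostly VGLUT1, neurons of the thalamus and other subcortical regions mostly VGLUT2, and VGLUT3 is found in sparse populations that also release other transmitters. After release, glutamate is taken up mainly by astrocytes through the carriers encoded by Slc1a2 (EAAT2) and Slc1a3 (EAAT1), with Slc1a1 (EAAT3) on neurons. Astrocytes convert it to glutamine with glutamine synthetase (Glul), neurons take glutamine up through carriers such as that encoded by Slc38a1, and glutaminases, of which Gls2 encodes the liver type, turn it back into glutamate.

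Total counts per library were 24563116 to 36542883 in ctrl and 23090483 to 43668462 in stim. The library numbers in the labels form 2 runs, numbers 1 to 11 with 6 ctrl and 4 stim mice and numbers 12 to 23 with 6 of each, called the first and the second run below. The study used 2 batches of animals, and the labels do not say whether these are the runs. Between the runs, 68.1% of the 17524 genes tested had an adjusted p under 0.05 by edgeR (quasi-likelihood), so the values of the members with group only stand beside those with the run as a covariate or within each run. Markers of cortical excitatory neurons were present in every library, their summed level lying between 2001 and 5244 CPM, counts scaled by TMM to the size of each library. Markers of oligodendrocytes set 2 libraries apart. Their sum was 19856 CPM in ctrl 9 and 14602 CPM in ctrl 11, both in the second run, against 2372 to 6331 CPM in all other mice, and values without these mice were computed with group only, with the run and within the second run.

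Levels of the members spanned a wide range. Per kilobase of exon, Slc17a7 was highest at 378 ± 129 CPM (SD, n = 22), rank 59 of 17516 genes by level. Slc1a3 (123 ± 38.9 CPM per kilobase), Glul (119 ± 25.8) and Slc1a2 (89.7 ± 19.6) followed, the glial genes of uptake and glutamine synthesis. Well below these lay Gls2 (10.4 ± 0.98 CPM per kilobase), Slc38a1 (10.3 ± 3.21) and Slc1a1 (8.41 ± 1.68). Slc17a6 reached 3.03 ± 1.65 CPM per kilobase, and Slc17a8 was lowest at 0.182 ± 0.0818, with 4 to 66 reads per library.

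Not every neighbour in this order could be separated. Slc17a7 lay above Slc1a3 in all 22 mice, Glul above Slc1a2 in 22, Slc1a2 above Gls2 in 22, Slc1a1 above Slc17a6 in 22, and Slc17a6 above Slc17a8 in 22. Slc1a3 lay above Glul in 0 of 10 mice of the first run and in 11 of 12 of the second, so their order was not the same in the runs. Gls2 was above Slc38a1 in 10 of 10 mice of the first run and 0 of 12 of the second. Slc38a1 was above Slc1a1 in 4 of 10 and 12 of 12 mice. The place of Slc1a1 in this order is less sure, since 2631 of its 8257 exon bases are shared with another gene, as given below.

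**Figure D1:**
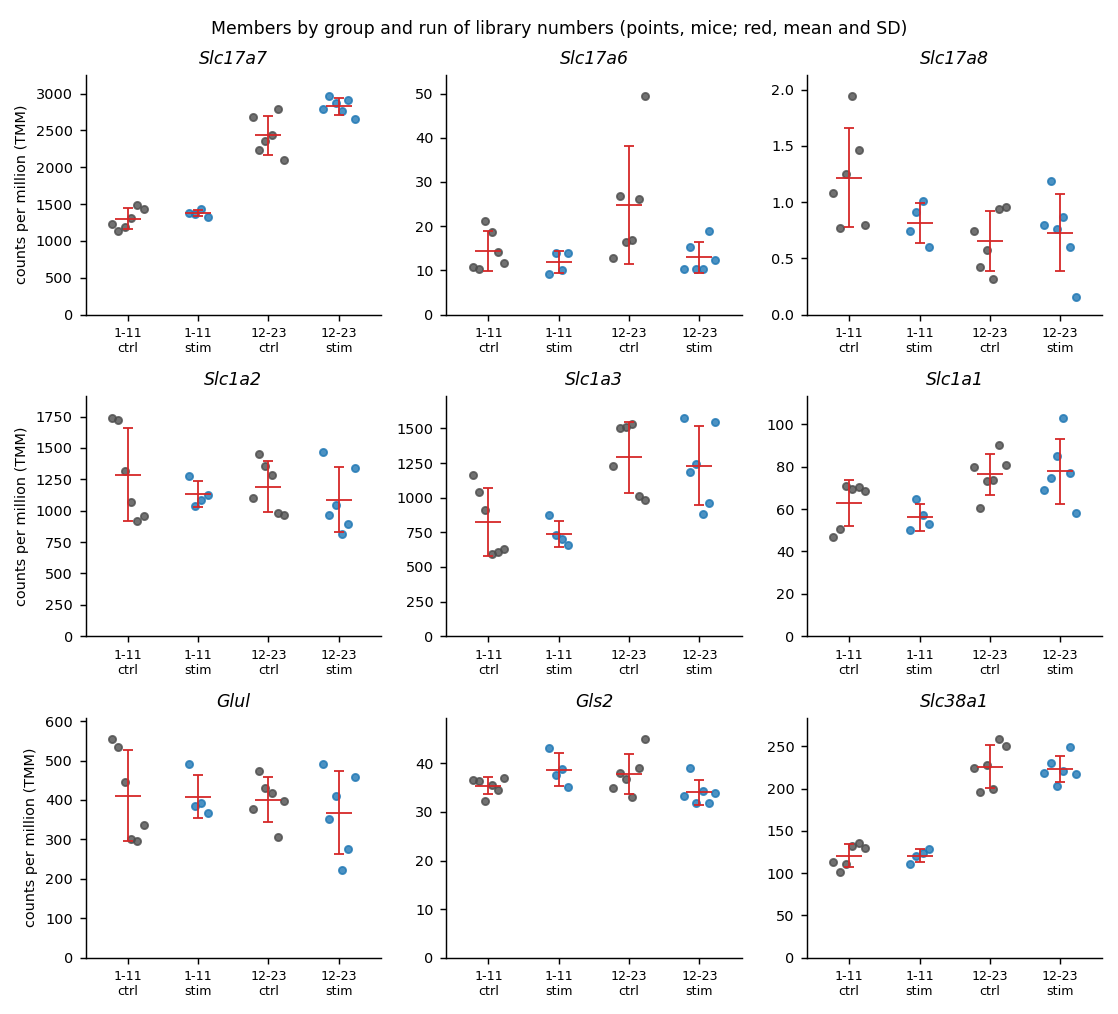
Level of each of the 9 genes in every mouse, in TMM-scaled CPM on linear axes that start at 0, by group and run of library numbers (6, 4, 6 and 6 mice); red marks are the mean and SD. Slc17a7 and Slc38a1 separate by run, and ctrl 9 stands above the other mice for Slc17a6 at 49.4.

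In the comparison of stim with ctrl, 1 of the 9 members passed an unadjusted p of 0.05 with group as the only term, where 3.61% of all genes tested did. That gene was Slc17a6, which was lower in stim. With the run as a covariate, 2 of 9 passed (11.5% of all genes), Slc17a6 again and Slc17a7, which was higher in stim. No gene of the table had an adjusted p under 0.05 in either edgeR fit, with 632 and 2015 genes at an unadjusted p under 0.05, and 3 and 33 genes were called by the Wald test of DESeq2 without and with the run, none of them a member. Within the first run 0 of 9 members passed (5.56% of all genes), and within the second run 3 of 9 (12.4%), which were Slc17a6, Slc17a7 and Gls2. Without ctrl 9 and ctrl 11, 0 of 9 passed with group only (2.64% of all genes), and Slc17a6 alone passed with the run (8.16%) and within the second run (4.99%).

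**Figure D2:**
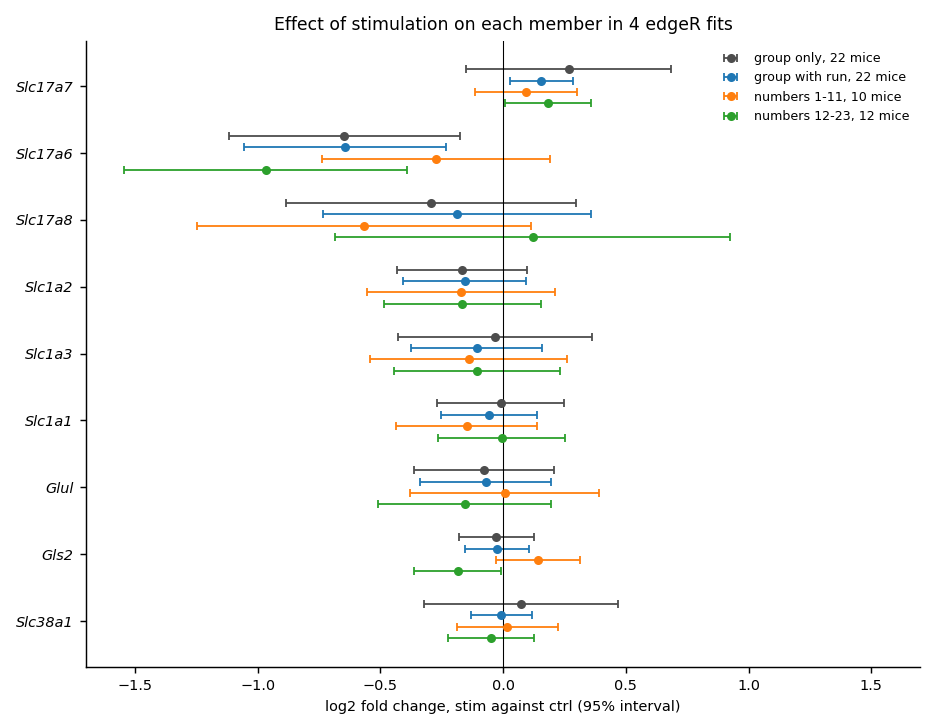
Log2 fold change of stim against ctrl for each member, with its 95% interval, in 4 edgeR fits: group only and group with the run (22 mice each), and within library numbers 1 to 11 (10 mice) and 12 to 23 (12 mice). The intervals of Slc17a6 exclude 0 in 3 fits, those of Slc17a7 in 2, and that of Gls2 in 1, where it lies below 0.

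Among the vesicular carriers, Slc17a6, on chromosome 7 (51622006 to 51671119, GRCm38), had 10.2 CPM in the lowest ctrl mouse, a median of 16.6 and 49.4 in the highest. In stim mice the lowest level was 9.20 CPM, the median 11.3 and the highest 18.9. The groups overlapped, 4 ctrl mice (ctrl 3, 8, 9 and 11, at 21.2, 26.1, 49.4 and 26.8 CPM) lay above every stim mouse, and 9 of 10 stim mice lay below the ctrl median. The log2 fold change was -0.65 (SE 0.23, 95% interval -1.12 to -0.18, p = 0.0092, adjusted p = 0.99975, edgeR) with group only and -0.64 (SE 0.20, p = 0.0035, adjusted p = 0.329, edgeR) with the run. A two-sided permutation test on log2 CPM gave p = 0.0238 over all mice and, with labels exchanged within the runs, an exact p of 0.0133. In bulk tissue, fewer cells of a type and less RNA per cell cannot be told apart.

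The size of the Slc17a6 difference was not the same in every subset. In the first run the 4 stim mice had 9.20, 13.9, 10.1 and 14.0 CPM, and the ctrl mice 10.2 to 21.2 CPM, with 2 of 4 stim mice below every ctrl mouse and 3 of 6 ctrl mice above every stim mouse, and the log2 fold change was -0.27 (p = 0.226, edgeR). In the second run the ctrl mice had 12.8 to 49.4 CPM and the stim mice 10.4 to 18.9 CPM, every stim mouse below the ctrl median, with a log2 fold change of -0.97 (SE 0.27, p = 0.0026, adjusted p = 0.263, edgeR). The difference between the runs in this effect was -0.64 (95% interval -1.44 to 0.15, p = 0.108, edgeR) and did not pass the test. Leaving out any single mouse kept p under 0.05 in all 22 fits, with log2 fold changes of -0.73 to -0.43.

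Markers of oligodendrocytes and of thalamic neurons were set beside it. All 10 oligodendrocyte markers tested were lower in stim and all 10 passed an unadjusted p of 0.05. The median of their log2 fold changes was -0.73, and that of all genes tested 0.0085. Among them Mbp, which encodes myelin basic protein, was at -0.79 (p = 0.0109, edgeR). Their summed level was 3232 to 19856 CPM in ctrl and 2372 to 5847 CPM in stim. Without ctrl 9 and ctrl 11, the log2 fold change of Slc17a6 was -0.34 (p = 0.057, edgeR) with group only, -0.38 (p = 0.0267) with the run and -0.50 (p = 0.0268) within the second run, and of the 10 oligodendrocyte markers, all lower in these fits, 0, 1 and 5 passed. With all mice and the run as a covariate, all 10 of these markers were lower and passed (median -0.69 on the log2 scale). Within the first run 6 of 10 were higher and 0 passed (median 0.04), and within the second all 10 were lower and passed (median -1.31). Of the thalamic markers, 4 of the 6 tested were lower and 1 of these, Tcf7l2, passed an unadjusted p of 0.05 (log2 fold change -0.25, p = 0.0457, edgeR), while Gbx2 was under the count minimum, and the summed level of the list was 35.3 to 52.0 CPM in ctrl and 35.6 to 50.2 CPM in stim. The largest log2 fold change of this list was that of Slitrk6, which was higher at 0.38 (SE 0.41, p = 0.365, edgeR). Within the first run 4 of the 6 thalamic markers were lower and 0 passed, with log2 fold changes from -0.22 to 0.93. Within the second 6 of 6 were lower and 1 passed, Tcf7l2 at -0.32 (p = 0.0228, edgeR). No thalamic marker passed without ctrl 9 and ctrl 11 in any of the 3 fits, with Tcf7l2 at -0.24 (p = 0.0783, edgeR) with group only and -0.25 (p = 0.107) within the second run. The part of either list in the Slc17a6 difference was not tested.

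**Figure D3:**
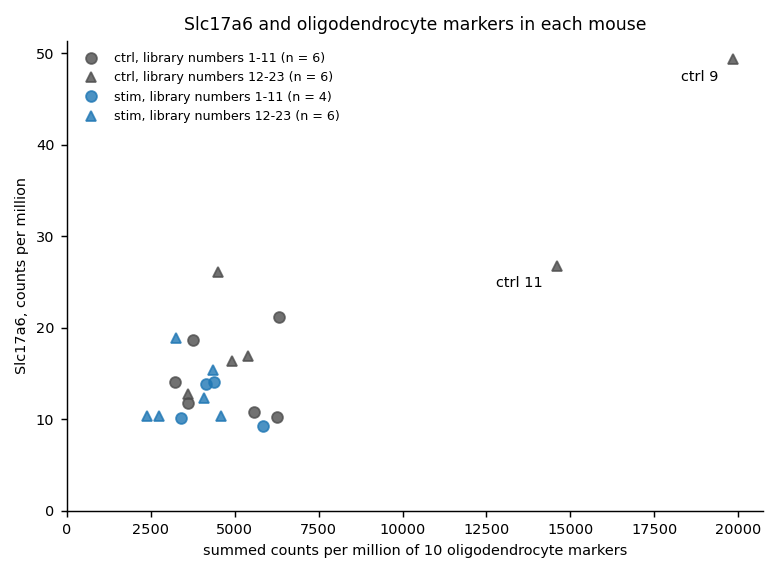
Slc17a6 in CPM against the summed CPM of 10 oligodendrocyte markers, 1 point per mouse, on linear axes from 0. Ctrl 9 is highest on both axes and ctrl 11 second on both, while all other mice lie at or below 6331 on the marker axis.

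Slc17a7, on chromosome 7 (45163949 to 45176142), carried 97.7% to 99.6% of the summed level of the 3 vesicular carriers per kilobase in every mouse. In the first run ctrl mice had 1137 to 1492 CPM (median 1271) and stim mice 1376, 1361, 1427 and 1331 CPM, all above the ctrl median and within the ctrl range. In the second run the lowest ctrl mouse had 2100 CPM, the median was 2394 and the highest had 2789, against 2651, 2835 and 2963 CPM for the lowest, the median and the highest in stim. There, 4 of 6 stim mice lay above every ctrl mouse and 4 of 6 ctrl mice below every stim mouse.

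The log2 fold change of Slc17a7 was 0.27 (SE 0.20, 95% interval -0.15 to 0.69, p = 0.200, edgeR) with group only. With group only and sample quality weights it was 0.43 (p = 0.0227, limma voom), and with the replicate number as a block 0.33 (p = 0.0082, edgeR). Neither fit has the run as a term, and in 2 of the 10 same-numbered pairs of the block the ctrl mouse is of the first run and the stim mouse of the second (1492 and 2963 CPM for number 5, 1436 and 2875 CPM for number 6), so the blocked value carries the run difference of these pairs. With the run as a covariate it was 0.16 (SE 0.06, 95% interval 0.03 to 0.28, p = 0.0177, adjusted p = 0.363, edgeR), and exchange of labels within the runs gave an exact p of 0.00717. It was 0.09 (p = 0.353) in the first run and 0.18 (p = 0.0416) in the second. The size and the call thus depended on the fit. Without ctrl 9 and ctrl 11, at 2100 and 2240 CPM the lowest ctrl mice of the second run, the value with the run was 0.12 (p = 0.0708) and within the second run 0.12 (p = 0.17), past the threshold in neither. Of 10 markers of cortical excitatory neurons, 7 were higher with the run as a covariate, none of which passed an unadjusted p of 0.05, and 3 were lower, of which Rorb passed (-0.19, p = 0.0413, edgeR).

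As the first of these carriers was lower and the other higher, the share of Slc17a6 in the summed vesicular carriers was 0.475% to 2.29% in ctrl (median 0.907%) and 0.360% to 1.04% in stim (median 0.578%). Within the second run it was 1.04% ± 0.658 (SD, n = 6) in ctrl and 0.453% ± 0.111 (SD, n = 6) in stim, and without ctrl 9 and ctrl 11 it was 0.695% ± 0.185 (SD, n = 4) in ctrl. These shares use the values already tested above and were given no test of their own. Slc17a8, on chromosome 10 (89574020 to 89621253), had 0.313 to 1.94 CPM in ctrl and 0.157 to 1.19 CPM in stim, with a log2 fold change of -0.30 (95% interval -0.89 to 0.30, p = 0.312, edgeR). It was -0.57 in the first run and 0.12 in the second, and -0.19 (p = 0.483) with the run as a covariate, on 4 to 66 reads per library.

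No carrier of uptake passed an unadjusted p of 0.05 in any of these 4 fits. Slc1a2, on chromosome 2 (102658659 to 102790784), had 920 to 1740 CPM in ctrl (median 1193) and 815 to 1468 CPM in stim (median 1068). Its log2 fold change was -0.17 (95% interval -0.43 to 0.10, p = 0.207, edgeR) with group only, -0.16 (95% interval -0.41 to 0.09, p = 0.206) with the run, and -0.17 in both runs. Slc1a3, on chromosome 15 (8634124 to 8710764), had 594 to 1530 CPM in ctrl and 656 to 1577 CPM in stim. Its log2 fold change was -0.03 (95% interval -0.43 to 0.36, p = 0.866) with group only and -0.11 (95% interval -0.37 to 0.16, p = 0.409) with the run, -0.14 in the first run and -0.11 in the second. The groups overlapped for both, and intervals this wide leave room for differences of either sign. Astrocyte markers were lower in 14 of 15 cases (median -0.11 on the log2 scale), and 0 of 15 passed an unadjusted p of 0.05 with group only. With the run 14 of 15 were lower and 1 of these passed (median -0.12), in the first run 11 were lower and 0 passed, and in the second 14 were lower and 1 passed.

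Slc1a1, the neuronal carrier, on chromosome 19 (28835049 to 28913960), had 46.8 to 90.1 CPM in ctrl (median 70.8) and 50.1 to 103 CPM in stim (median 66.9). Its log2 fold change was -0.0097 (95% interval -0.27 to 0.25, p = 0.939, edgeR) with group only and -0.06 (95% interval -0.25 to 0.14, p = 0.550) with the run, -0.15 in the first run and -0.0067 in the second. In the annotation, 2631 of its 8257 exon bases are shared with 4430402I18Rik on the opposite strand, and the library kit keeps no strand, so reads of the pair cannot be told apart there.

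Glul, on chromosome 1 (153899944 to 153909723), encodes glutamine synthetase. It had 295 to 554 CPM in ctrl (median 408) and 222 to 492 CPM in stim (median 388). The log2 fold change was -0.08 (95% interval -0.36 to 0.21, p = 0.575, edgeR) with group only and -0.07 (95% interval -0.34 to 0.20, p = 0.589) with the run, with 0.0062 in the first run and -0.16 in the second.

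Slc1a2, Slc1a3 and Glul varied together from mouse to mouse within each run. Of 72 relations computed (36 pairs of members in each of 2 runs, log2 CPM, permutation tests with 100000 resamples), 10 passed an adjusted p of 0.05 for Pearson's r in the first run and 7 in the second, 4 of them in both, and the 3 positive ones among these 4 were the pairs of these genes. Slc1a3 and Glul had r = 0.964 (permutation p = 1e-05, the smallest these resamples can give, adjusted p = 0.00024, rho = 0.964 with p = 7e-05) over the 10 mice of the first run. Over the 12 mice of the second run they had r = 0.873 (permutation p = 0.00011, adjusted p = 0.0018, rho = 0.909 with p = 0.00014). Without the 2 mice farthest from the median of Slc1a3, r was 0.939 and 0.801.

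Slc1a2 and Slc1a3, the astrocytic carriers, had r = 0.942 (permutation p = 0.00015, adjusted p = 0.0018, rho = 0.855 with p = 0.00309) in the first run and 0.956 (permutation p = 1e-05, adjusted p = 0.00024, rho = 0.909 with p = 0.00014) in the second, and 0.851 and 0.959 without the 2 mice farthest on Slc1a2. Slc1a2 and Glul had r = 0.912 (permutation p = 0.00015, adjusted p = 0.0018, rho = 0.903 with p = 0.00078) and 0.887 (permutation p = 1e-05, adjusted p = 0.00024, rho = 0.944 with p = 7e-05), and 0.840 and 0.851 without the 2 farthest. All of these relations held in both runs. They share the depth and the tissue makeup of each library. The neuronal carrier Slc1a1 went the other way in the second run, with r = -0.800 against Slc1a2 (permutation p = 0.00136, adjusted p = 0.0089, rho = -0.762 with p = 0.00565), and in the first run with r = -0.716 (permutation p = 0.0204, adjusted p = 0.0667, rho = -0.60 with p = 0.0738), which did not pass the adjustment. Without the 2 mice farthest on Slc1a1 these were -0.732 and -0.581.

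**Figure D4:**
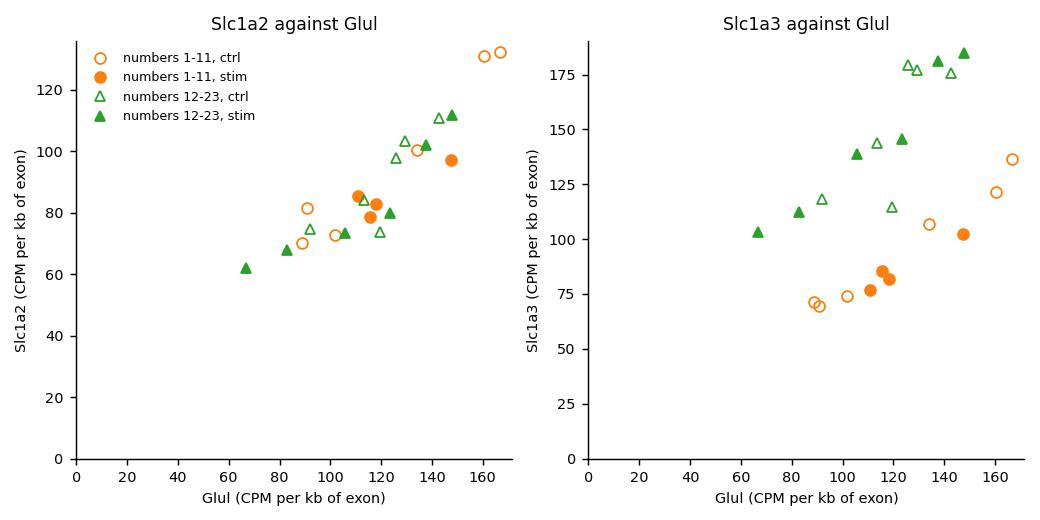
Slc1a2 (left) and Slc1a3 (right) against Glul in each mouse, in CPM per kilobase of exon on linear axes from 0; circles are library numbers 1 to 11, triangles 12 to 23, and filled symbols stim. In each run the points rise together (r between 0.873 and 0.964), and for Slc1a3 the mice of the second run lie above those of the first at the same Glul.

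As a description, the sequence before the RefSeq start sites of the members (GRCm38.p6) was searched in windows of 250 bases on both strands. The motifs were the TATA box (letters TATAAA), the GC box (letters GGGCGG) and the CCAAT box (letters CCAAT). Their matches do not overlap in either window printed below. RefSeq promoters were found for 7 of the 9 members. Of 32851 promoters of this length, 12.37% held the TATA box, 32.74% the GC box and 33.85% the CCAAT box. The window of Slc1a3 held 1 TATA box, 1 GC box and 3 CCAAT boxes, that of Glul 0, 1 and 2, and that of Slc1a2 held none of the 3 motifs. The window of Slc1a2 lies inside the gene as annotated above (start 102658659), before an internal start, so it is not the sequence upstream of the annotated gene and its motif counts are not set against those of the other windows. The sequences of the 2 astrocytic carriers follow with motif matches in capitals, for Slc1a2 only the 168 bases before an annotated exon (chr2:102706188-102706355, plus strand; Slc1a3 chr15:8710808-8711057, minus strand). The window of Glul overlaps an exon of Teddm2 and is not shown.
Slc1a2: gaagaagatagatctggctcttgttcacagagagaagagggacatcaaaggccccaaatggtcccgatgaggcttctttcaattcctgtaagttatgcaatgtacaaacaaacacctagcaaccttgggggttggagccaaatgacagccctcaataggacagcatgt
Slc1a3: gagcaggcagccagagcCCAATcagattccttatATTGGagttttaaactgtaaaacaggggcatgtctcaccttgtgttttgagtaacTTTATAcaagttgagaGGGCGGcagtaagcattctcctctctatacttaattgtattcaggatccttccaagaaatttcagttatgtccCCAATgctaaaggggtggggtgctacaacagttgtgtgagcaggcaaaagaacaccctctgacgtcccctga
Such matches describe only the letters in these windows.

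Gls2, on chromosome 10 (128194457 to 128210004), had a coefficient of variation of 9.34% over the 22 mice, with 7.92% within the first run and 10.7% within the second, where Slc38a1 had 8.95%. Its level was 32.3 to 44.9 CPM in ctrl (median 36.5) and 31.9 to 43.2 CPM in stim (median 34.7), and the log2 fold change was -0.03 (95% interval -0.18 to 0.12, p = 0.714, edgeR) with group only and -0.03 (p = 0.692) with the run. The runs pointed in opposite directions. In the first run ctrl mice had 32.3 to 37.0 CPM and stim mice 43.2, 37.6, 38.9 and 35.2 CPM, 3 of the 4 above every ctrl mouse, for a log2 fold change of 0.14 (p = 0.0972, edgeR). In the second run ctrl mice had 33.1 to 44.9 CPM and stim mice 31.9 to 39.0 CPM, 5 of the 6 below the ctrl median, for -0.19 (p = 0.0417, adjusted p = 0.384, edgeR). The difference between the runs in this effect was -0.28 (95% interval -0.52 to -0.04, p = 0.0224, adjusted p = 0.580, edgeR), so Gls2 was the only member of 9 past an unadjusted p of 0.05 for that difference, where 8.01% of all genes were. Without ctrl 9 and ctrl 11 the value within the second run was -0.11 (p = 0.243).

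Gls2 also had opposite relations to Slc17a6 in the runs. Over the 10 mice of the first run r was -0.789 (permutation p = 0.00476, adjusted p = 0.0229, rho = -0.842 with p = 0.00337) and over the 12 mice of the second 0.802 (permutation p = 0.0027, adjusted p = 0.0139, rho = 0.546 with p = 0.071). Without the 2 mice farthest on Slc17a6 these were -0.727 and 0.516, so the second rests in part on those mice.

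Slc38a1, a carrier of glutamine into neurons, on chromosome 15 (96571418 to 96642913), had 102 to 258 CPM in ctrl and 111 to 249 CPM in stim. Its levels split by run. In the first run the level was 120.5 ± 13.6 CPM (SD, n = 6) in ctrl and 120.9 ± 7.51 CPM (SD, n = 4) in stim, and in the second 226 ± 25.4 CPM (SD, n = 6) and 223 ± 15.5 CPM (SD, n = 6). With the run as a covariate the log2 fold change was -0.0074 (95% interval -0.13 to 0.12, p = 0.904, edgeR). In the first run Slc38a1 was negatively related to the astrocytic genes, with r = -0.926 against Glul (permutation p = 0.00026, adjusted p = 0.0027, rho = -0.915 with p = 0.00068, and -0.957 without the 2 mice farthest on Glul). In the second run this was r = -0.488 (permutation p = 0.108, adjusted p = 0.235, rho = -0.615 with p = 0.0365, and -0.675 without the 2 mice farthest on Glul).

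Between the runs, 5 of the 9 members differed at an adjusted p under 0.05, beside 68.1% of all genes tested. With group as a covariate, Slc17a7 was higher in the second run by 0.96 on the log2 scale (SE 0.06), Slc38a1 by 0.90 (SE 0.06), Slc1a3 by 0.69 (SE 0.13), Slc17a6 by 0.49 (SE 0.20) and Slc1a1 by 0.36 (SE 0.09). Among these 5, the run difference was larger than the group difference for all but Slc17a6. Slc17a8 was at -0.56 (adjusted p = 0.0624, edgeR), while Slc1a2 (-0.09), Glul (-0.09) and Gls2 (-0.03) did not pass. Since Slc1a3 differed and Slc1a2 was within the spread, the ratio of Slc1a2 to Slc1a3 per kilobase was 1.01 ± 0.0827 (SD, n = 10) in the first run and 0.589 ± 0.0368 (SD, n = 12) in the second, with no overlap. Within the second run it was 0.603 ± 0.0376 (SD, n = 6) in ctrl and 0.575 ± 0.0330 (SD, n = 6) in stim, overlapping ranges. The mitochondrial share of counts was 1.63% to 4.81% in the first run and 0.982% to 1.90% in the second, and its part in these differences was not tested.

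Beyond the members, 21 further genes of glutamate handling were examined, of which 20 passed the count minimum (Slc1a7 did not). With group only, 12 were higher and 8 lower in stim (median 0.07 on the log2 scale), and 0 of 20 passed an unadjusted p of 0.05. By kind, 3 of 5 plasma membrane carriers, 1 of 4 glutamine carriers, 5 of 6 enzymes and 3 of 5 mitochondrial carriers were higher. With the run, 2 of 20 passed, a share near that of all genes tested (11.5%). These were Slc3a2, the heavy chain shared by several amino acid carriers including the cystine and glutamate exchanger, at 0.12 (SE 0.05, p = 0.0144, adjusted p = 0.353, edgeR), and Slc25a11, the mitochondrial oxoglutarate carrier, at 0.13 (SE 0.06, p = 0.0328, adjusted p = 0.402, edgeR). Of the 20 genes, 1 passed without ctrl 9 and ctrl 11, where Slc25a11 was at 0.11 (p = 0.0737, edgeR) and Slc3a2 at 0.11 (p = 0.0337, edgeR). Slc3a2 was at 208.6 ± 9.28 CPM (SD, n = 6) in ctrl and 230.5 ± 16.2 CPM (SD, n = 6) in stim in the second run, and at 252.0 ± 16.4 (SD, n = 6) and 269.9 ± 10.8 (SD, n = 4) in the first.

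Within the first run 1 of the 20 further glutamate genes passed, and within the second 3 of 20, beside 5.56% and 12.4% of all genes tested. Those of the second run, named after their values were seen, were Slc38a7, a glutamine carrier, at 0.27 (p = 0.0165, edgeR), Slc25a22, a mitochondrial glutamate carrier, at 0.29 (p = 0.0401, edgeR), and Slc25a13, which was also the gene of the first run. None of the 20 passed within the second run without ctrl 9 and ctrl 11, where Slc38a7 was at 0.22 (p = 0.0507, edgeR) and Slc25a22 at 0.19 (p = 0.172, edgeR). Slc25a13, a mitochondrial carrier of aspartate and glutamate, was at 0.51 (p = 0.0289) in the first run and -0.78 (p = 0.0098) in the second (edgeR), at a low level of 0.993 to 4.88 CPM. The difference between the runs in this effect was -1.25 (SE 0.35, p = 0.0013, adjusted p = 0.545, edgeR), on values chosen after they were seen. Over all mice its value was -0.20 (p = 0.360) with group only and -0.18 (p = 0.405) with the run, and without ctrl 9 and ctrl 11 it was 0.03 (p = 0.877, edgeR) with group only and -0.50 (p = 0.0563) within the second run.

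The vacuolar ATPase, which acidifies the vesicle and so powers the vesicular carriers, was represented by 16 subunit and accessory genes. With group only, 13 of 16 were higher in stim and 0 passed an unadjusted p of 0.05 (median 0.12 on the log2 scale). With the run, 16 of 16 were higher with a median of 0.15, and 6 of 16 passed, where 6.05% of all genes tested were higher and passed. These were Atp6v0c, which forms the proton-conducting ring, at 0.23 (SE 0.09, p = 0.0148, adjusted p = 0.353), Atp6v1g2 at 0.20 (p = 0.0172), Atp6v1e1 at 0.20 (p = 0.0122), Atp6v0d1 at 0.19 (p = 0.0114), Atp6v0e2 at 0.16 (p = 0.0384) and Atp6v1f at 0.14 (p = 0.0383), all by edgeR. None had an adjusted p under 0.05.

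For Atp6v0c the 6 ctrl mice of the second run had 82.8 to 131 CPM and the 6 stim mice 119 to 142 CPM. In the first run the values were 138 to 238 CPM and 191 to 221 CPM, the latter range inside the former. Within the first run 10 of 16 genes of this list were higher and 0 passed, and within the second 16 of 16 were higher and 8 passed, where 4.06% of all genes were higher and passed. Without ctrl 9 and ctrl 11, with the run, 15 of 16 were higher and 4 passed, with group only 10 of 16 and 0, and within the second run 16 of 16 and 2, which were Atp6v0c at 0.25 (p = 0.0395, edgeR) and Atp6v0d1 at 0.22 (p = 0.0339, edgeR). Of all 17524 genes, 833, 148 and 246 were higher and passed in these fits, in this order. These genes share mice and normalization, so the counts of directions are not independent observations. The direction was the same as that of Slc17a7, and between the runs the list went opposite to Slc17a7, with 13 of 16 genes lower in the second run.

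**Figure D5:**
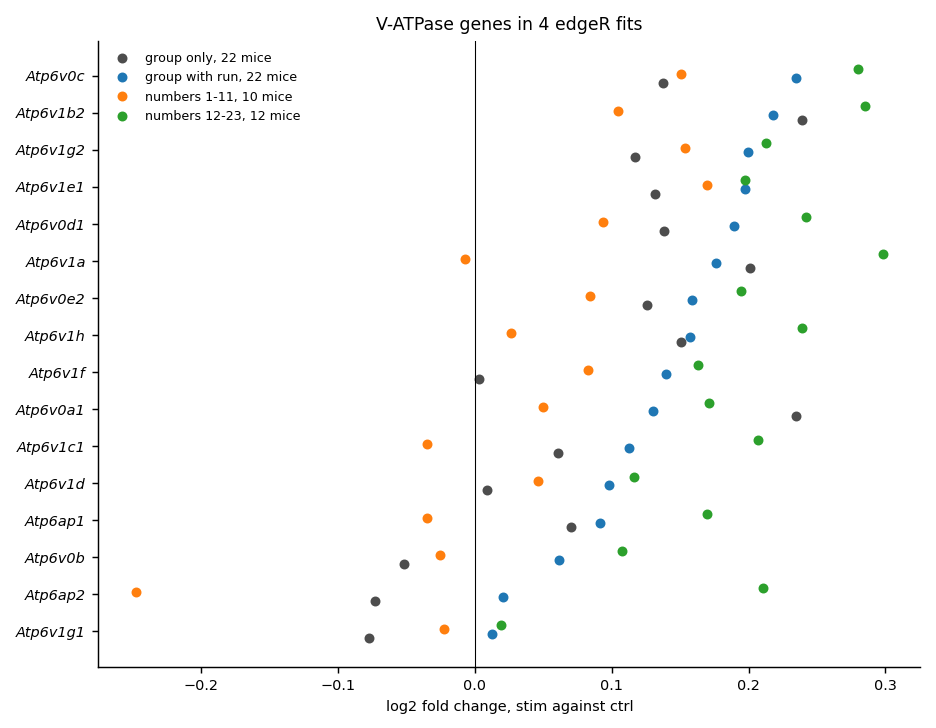
Log2 fold change of stim against ctrl for the 16 vacuolar ATPase genes in 4 edgeR fits, ordered by the fit with the run. All 16 lie above 0 with the run and within library numbers 12 to 23, 13 with group only, and 10 within numbers 1 to 11.

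For each member, the genes most alike in pattern were those with the highest mean of the Spearman correlations within the 2 runs, among 17515 genes compared and given as a description over 10 and 12 mice. Glul was followed most closely, by Clu (mean rho 0.981), Gstm1 (0.980) and S100b (0.980), and Slc1a3 by Tmem176b (0.967), Naaa (0.963) and Cpe (0.963). Slc1a2 was followed by Shank1 (0.945), Usmg5 (0.937) and Cox7b (0.931). Of these, Clu and S100b are in the astrocyte marker list.

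Among the neuronal members, Slc17a7 was closest to Atp9a (mean rho 0.950), Arfip2 (0.935) and Lrp3 (0.930), Slc1a1 to Prdm8 (0.931), Impa1 (0.920) and Agfg1 (0.898), and Slc38a1 to Gm6560 (0.943), Zfp804a (0.874) and Ogfrl1 (0.873). Slc17a6, Slc17a8 and Gls2 had looser neighbours. Slc17a6 was closest to Pcdh9 (0.807), C1ql2 (0.797) and Pkdrej (0.778), Slc17a8 to Utp6 (0.831), Zfp58 (0.786) and Stc1 (0.774), and Gls2 to Angptl1 (0.729), Impa2 (0.697) and Rasl12 (0.669).

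The remaining marker lists differed between the fits. With group only, of 10 markers of GABA neurons 7 were higher, of 8 microglial markers 6, of 6 endothelial markers 3, of 8 striatal markers 8 and of 5 markers of claustrum and deep layer neurons 4, and 1 of all these genes passed an unadjusted p of 0.05, Gnb4 of the last list at 0.23 (p = 0.0356, edgeR). Gnb4 was at 0.18 (p = 0.104, edgeR) without ctrl 9 and ctrl 11. Of 10 markers of cortical excitatory neurons 9 were higher and 0 passed.

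With the run as a covariate, 8 of 10 GABA markers were higher and 2 passed, Slc32a1, which encodes the vesicular GABA carrier, at 0.31 (p = 0.0051, edgeR) and Sst at 0.24 (p = 0.0420, edgeR). Both also passed within the first run, while within the second 5 of 10 were higher and 1 lower gene, Pvalb, passed (-0.72, p = 0.0307, and -0.08, p = 0.723, without ctrl 9 and ctrl 11, edgeR). Endothelial markers were higher in 0 of 6 cases with the run, with 0 passed, and within the first run Kdr passed at -0.57 (p = 0.0023, edgeR). Of the 8 striatal markers 8 were higher with the run and 0 passed, and within the first run 7 were higher and 3 passed. Microglial markers were higher in 6 of 8 cases with the run and within each run, with 0 passed. Of the claustrum and deep layer list, Gnb4 was at 0.24 (p = 0.0217, edgeR) with the run and 0.33 (p = 0.0148, edgeR) within the second run, and Synpr at -0.33 (p = 0.0044, edgeR) in the first run and 0.38 (p = 0.0466, edgeR) in the second. Within the second run without ctrl 9 and ctrl 11 these were at 0.24 (p = 0.0838) and 0.25 (p = 0.186), past the threshold in neither case. With the run and without these mice, 0 of the 5 genes of this list passed. The part of these lists in the values of the members was not tested.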

How the data were processed

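Bulk ACC RNA of 12 ctrl and 10 stim mice was sequenced single-end after SMART-Seq v4 amplification. Per the submitters' processing notes the authors used cutadapt 1.10, STAR 2.5.3a, HTSeq 0.6.1p1, DESeq2 1.22.1 and mm10. The strand setting of the counting is not given in the sources used here. The authors deposited whole-number counts per gene and mouse, which were tested, and the same counts divided by size factors (a signal without the depth), which were not tested. Their columns of log2 fold changes, p-values and adjusted p-values, with decimal commas, were not used.

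Tests were run in R 4.3.3 with edgeR 4.0.16 (TMM, glmQLFit, glmQLFTest) on genes that reached 10 counts in 10 or more mice, which left 17524, and p-values were adjusted over all of these (Benjamini-Hochberg). The labels hold neither batch nor RNA integrity, so group was the only term and the run of library numbers a second fit. The paper states that both were covariates in its own test and are listed in its supplement. Neither was used here. Log2 CPM used a prior count of 2, and levels per kilobase used merged GENCODE exons, with 37772 of 37786 identifiers matched. Permutation tests and correlations used scipy 1.17.1 and were two-sided. Alternatives were DESeq2 1.42.0, limma 3.58.1 voom with quality weights, DESeq2 size factors, other count minimums, a prior count of 0.5, the replicate number as a block, each run alone, leaving out each mouse, and, added after seeing the data, leaving out ctrl 9 and 11.

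The genes named were the 9 members, further glutamate genes and vacuolar ATPase genes with an unadjusted p under 0.05 in either fit, the 3 genes most alike in pattern to each member, and up to 3 examples of a marker list. Slc25a13, Slc38a7 and Slc25a22 were named after their values were seen. Most marker genes given with a log2 fold change were also picked for an unadjusted p under 0.05 in some fit. Members and lists were chosen with earlier results of these data known. Some genes of these lists are not reported here by name. Each library is 1 mouse, and over 231 pairs no libraries agreed within sampling noise (smallest mean chi-square per gene 10.2).

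On simulated counts of 17298 genes, the group-only fit recovered 28.6% of genes changed 1.5-fold and 62.5% of those changed 2-fold, and the fit with the run 63.3% and 87.5%.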

Additional observations from a re-analysis of the deposited data

Results flagged for a closer look

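Gls2 was flagged in 2 ways. Among the 6 stim mice of the second run, the highest, stim 5, had 39.0 CPM and the nearest other mouse 34.3 CPM, a gap of 0.664 of the whole range. Each of the 9 genes was examined in this way in 5 sets of mice (all 10 stim mice, and each group within each run), 45 in all, since 12 ctrl mice are too many for this rule. Of these 1 was flagged, and chance alone flags about 1 in 20. The group effect on Gls2 in library numbers 12 to 23 minus that in 1 to 11 was -0.28 (p = 0.0224, adjusted p = 0.580, edgeR interaction), and the effect was 0.14 in the first run and -0.19 in the second.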

How the results depend on the processing

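With group only, the count of genes with an adjusted p under 0.05 was 0, but 3 with DESeq2 and 1 without ctrl 9 and 11. The 632 genes at an unadjusted p under 0.05 became 1857 with voom, 2371 with no count minimum, 1291 with the replicate block, 2015 with the run, 974 in numbers 1 to 11 and 2165 in numbers 12 to 23. Of the 9 members, 2 passed with voom, beside 1857 of 17524 genes, and 2 with the replicate block, beside 1291. With the run 2 passed (11.5% of all genes), in the first run 0 (5.56%) and in the second 3 (12.4%). Without ctrl 9 and 11, 0 passed, where 2.64% of all genes did. Pathway genes that passed (the 20 glutamate and 16 vacuolar ATPase genes) numbered 6 with voom, 3 with the replicate block, 8 with the run, 1 in numbers 1 to 11 and 11 in numbers 12 to 23. They stand beside the same counts and shares of all genes. With the run, DESeq2 called 33 genes and the fit without ctrl 9 and 11 called 1, with 1 member and 5 pathway genes at an unadjusted p under 0.05, as had 8.16% of all genes. Within the second run without ctrl 9 and 11, 875 genes (4.99%) passed, with 1 member and 2 pathway genes.

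Log2 fold changes that turned sign were those of Slc17a8 in the second run (0.12), Slc1a1 with voom (0.0688), Slc1a3 with voom (0.0899), with the replicate block (0.0913) and without ctrl 9 and 11 (0.0201), Glul in the first run (0.0062), Gls2 in the first run (0.14) and without ctrl 9 and 11 (0.0152 with group only, 0.0320 with the run), and Slc38a1 with the run (-0.0074), in the second run (-0.0494) and with labels exchanged within the runs (-0.0022). None of these passed an unadjusted p of 0.05, and the cause was not tested.

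Leaving out each mouse gave 0 to 1 genes with an adjusted p under 0.05, 471 to 909 unadjusted and 0 to 1 pathway genes with group only, and 0 to 1, 1561 to 2489 and 5 to 9 with the run. The fold changes ranged from -0.0902 to 0.0340 for Slc1a1, -0.12 to 0.0267 for Slc1a3 and -0.0602 to 0.0030 for Gls2 with group only, and from -0.0604 to 0.0107 for Gls2 and -0.0273 to 0.0154 for Slc38a1 with the run. The single adjusted call appeared without ctrl 9. Slc17a8 did not reach 10 counts in each mouse and had no value under that minimum.

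The replicate numbers were not taken to pair the mice, since not every pair was over 0.1 and the labels name no shared animal, litter or day. Deviations of same-numbered mice correlated at 0.308 on average, from -0.367 to 0.635, with 8 of 10 pairs over 0.1, and those of mice with other numbers at -0.04. In 2 of the 10 pairs the mice are of different runs. With the replicate block Slc17a6 was at -0.47 (p = 0.0192) and Slc17a7 at 0.33 (p = 0.0082, edgeR).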
